A study of Mus musculus with 8 samples.

Results

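The regions described here are introns carrying H3K27ac within 5 kb of a transcription start site (TSS) in mouse embryonic stem cells. They are the rows of the deposited table whose simple annotation is Intron and whose distance to the nearest TSS is at most 5000 bases in either direction. The rule kept 9288 of 112137 regions, or 8.28% of all regions and 14.1% of the 66034 intronic ones. H3K27ac was profiled by CUT&Tag, in which a transposase tethered to an antibody-bound chromatin mark tags the DNA beside it, in 8 libraries that formed 4 groups of 2. The groups were formative DKO cells, which carry the MLL3KO_MLL4KO genotype and were taken 63 hours after withdrawal of LIF2i, formative WT cells of the R1 line taken at the same time, naive DKO cells, and naive WT cells of the R1 line, both with no withdrawal in their labels. No parental line and no number of clones is given for the DKO cells, so genotype and line or clone cannot be told apart. The deposited table holds 1 pooled value per group for H3K27ac, H3K4me1 and the RNA of a region's nearest gene, so these values have no SD or n and differences between them have no replicate check. The exception is formative against naive WT H3K27ac, for which the authors deposited a DiffBind test over the replicate libraries, which the series design describes as cultured and prepared independently.

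H3K27ac is a histone acetylation of active enhancers and promoters, and H3K4me1 is a methylation found at enhancers and on the flanks of promoters. The products of Kmt2c and Kmt2d, MLL3 and MLL4, are methyltransferases that place H3K4me1 at enhancers, whereas other enzymes, such as the SET1 complexes and MLL2, act at promoters rich in CpG. An intron close to a TSS can lie on the flank of its gene's own CpG-rich promoter or hold a separate regulatory element, and many first introns of genes active in embryonic stem cells hold enhancers. Withdrawal of LIF and of the 2 kinase inhibitors lets naive cells enter the formative state, in which naive genes such as Tfcp2l1 are turned down and genes such as Fgf5 are turned on.

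Of the 9288 introns, 7825 lay downstream of the nearest TSS and 1463 upstream of it, where the intron belongs to an overlapping or neighbouring gene or to a longer transcript. The median distance was 2505.5 bases, with a range of 101 to 4999, and the median width was 1159 bases. A host gene was found in the RefSeq annotation for 9254 introns, and it was the nearest gene for 7824 and another gene for 1430. The first intron of the host held 5767 of them, intron 2 held 1462 and later introns 2025. They belonged to 6674 nearest genes, of which 4773 had 1 such intron and 488 had 3 or more, and introns of the same gene are not independent of each other. CpG density had a median of 1.39 per 100 bases, against 1.10 in introns beyond 5 kb, 1.09 in intergenic regions within 5 kb and 4.60 in promoters. The H3K27ac levels are log2(value + 1), and 9017 introns were above 0 in all 4 groups and enter the counts below. The other 271 were listed at 0 in at least 1 group, with 75 in formative DKO, 20 in formative WT, 70 in naive DKO and 134 in naive WT. They were narrow, with a median width of 659 bases. By the authors' DiffBind test 167 of them rose and 23 fell between naive and formative WT cells. Among all regions above 0 in the 4 groups 18.2% rose and 16.4% fell. The 271 were set apart by a 0 that was more frequent in naive WT than in formative WT cells, so an excess of rises follows from that choice.

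Base composition varied widely among these introns, and the central 300 bases of 4 of them, from the plus strand of GRCm38 (mm10) as held in RefSeq, show its 2 ends with CpG in capitals. A median intron had 4 CpG in this window. Slc7a1 encodes a transporter of cationic amino acids, and its window at chr5:148399556-148399855, in intron 1 with the region centred 198 bases from the TSS, had 25 CpG. Foxp1 encodes a forkhead transcription factor, and its window at chr6:99028008-99028307 in intron 1 had 37. Defb1 encodes a beta-defensin, and its window at chr8:21780401-21780700 in intron 1 had 0, while that of Myof, which encodes the membrane protein myoferlin, at chr19:38038546-38038845 in intron 1 had 1. These genes were named for their large differences between groups, so the windows illustrate composition and do not tie it to a direction.
Slc7a1: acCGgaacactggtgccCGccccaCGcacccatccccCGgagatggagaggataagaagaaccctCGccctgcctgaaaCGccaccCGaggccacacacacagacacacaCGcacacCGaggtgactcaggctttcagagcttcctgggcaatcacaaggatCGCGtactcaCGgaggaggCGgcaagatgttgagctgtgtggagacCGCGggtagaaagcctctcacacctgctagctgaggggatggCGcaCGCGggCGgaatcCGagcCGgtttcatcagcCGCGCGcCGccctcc
Foxp1: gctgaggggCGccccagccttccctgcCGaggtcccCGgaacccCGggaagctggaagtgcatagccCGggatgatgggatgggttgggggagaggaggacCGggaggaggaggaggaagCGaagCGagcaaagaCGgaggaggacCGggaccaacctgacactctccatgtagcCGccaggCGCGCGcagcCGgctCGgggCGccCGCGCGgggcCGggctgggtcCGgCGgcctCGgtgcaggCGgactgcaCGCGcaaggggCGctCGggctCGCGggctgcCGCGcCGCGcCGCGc
Defb1: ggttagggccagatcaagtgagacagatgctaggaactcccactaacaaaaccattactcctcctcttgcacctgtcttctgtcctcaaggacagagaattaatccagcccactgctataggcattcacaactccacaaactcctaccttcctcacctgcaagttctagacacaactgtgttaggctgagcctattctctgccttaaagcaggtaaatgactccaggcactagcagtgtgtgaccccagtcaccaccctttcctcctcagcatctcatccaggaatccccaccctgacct
Myof: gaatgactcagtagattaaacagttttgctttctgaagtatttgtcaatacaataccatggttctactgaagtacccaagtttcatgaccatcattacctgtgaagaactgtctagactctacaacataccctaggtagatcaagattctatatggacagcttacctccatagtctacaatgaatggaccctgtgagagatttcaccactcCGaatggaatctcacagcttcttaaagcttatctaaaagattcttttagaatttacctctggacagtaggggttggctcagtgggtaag

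A set of 9 short motifs of known transcription factors was searched on both strands of the same central windows. The motif TCAAGGTCA is bound by estrogen-related receptors such as Esrrb, a naive pluripotency factor. It was present in 32 of 1939 introns that fell between naive and formative WT cells by the authors' DiffBind test (1.65%), in 7 of 1162 that rose (0.602%) and in 0.938% of all 112137 regions. ATTTGCAT, the octamer bound by POU factors, was in 1.91% of introns that fell, 0.861% of those that rose and 1.46% of all regions. AACCNGTT, bound by grainyhead-like factors, was in 2.11%, 2.84% and 2.29%, and the ETS motif CCGGAAGT in 0.877%, 0.344% and 0.569%. ACAATGG, bound by SOX factors, was in 3.82% of introns that fell, 3.53% of those that rose and 4.13% of all regions, and TGANTCA, bound by AP-1, was in 8.66%, 9.12% and 8.89%. The KLF motif CCACACCC was in 3.82%, 2.93% and 3.37%, and TGACGTCA, the cAMP response element, in 0.206%, 0.344% and 0.342%. The NRF1 motif, a palindrome longer than the others, was in 2 introns that fell, 0 that rose and 112 of all regions. The shares are descriptions without a test, and a match is not a bound site. In the windows that follow, capitals mark the ERR motif in the windows of Jam2 and Zscan10 and the grainyhead-like motif in that of Car4, all of them read on the minus strand. The grainyhead-like motif also lay in the windows of the named introns of Ccdc141, Kdm1a and Sall4. These fell between naive and formative WT cells by the DiffBind test, as did Jam2 and Zscan10, while Car4 rose. The windows shown thus do not tie a motif to a direction. The Jam2 window is chr16:84776177-84776476 in intron 1, the Zscan10 window chr17:23602314-23602613 in intron 1, of which 41.7% is soft-masked as repeat in the reference, and the Car4 window chr11:84959207-84959506 in intron 1.
Jam2: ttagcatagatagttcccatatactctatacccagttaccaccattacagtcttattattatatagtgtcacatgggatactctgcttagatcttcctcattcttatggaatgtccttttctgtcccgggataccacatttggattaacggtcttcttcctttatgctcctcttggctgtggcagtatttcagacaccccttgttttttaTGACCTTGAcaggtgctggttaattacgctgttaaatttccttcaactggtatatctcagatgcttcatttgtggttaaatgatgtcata
Zscan10: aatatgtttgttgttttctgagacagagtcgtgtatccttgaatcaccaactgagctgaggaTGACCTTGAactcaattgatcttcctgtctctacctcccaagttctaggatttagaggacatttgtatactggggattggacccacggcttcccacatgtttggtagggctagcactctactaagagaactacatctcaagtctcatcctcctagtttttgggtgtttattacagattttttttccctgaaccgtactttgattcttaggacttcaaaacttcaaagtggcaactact
Car4: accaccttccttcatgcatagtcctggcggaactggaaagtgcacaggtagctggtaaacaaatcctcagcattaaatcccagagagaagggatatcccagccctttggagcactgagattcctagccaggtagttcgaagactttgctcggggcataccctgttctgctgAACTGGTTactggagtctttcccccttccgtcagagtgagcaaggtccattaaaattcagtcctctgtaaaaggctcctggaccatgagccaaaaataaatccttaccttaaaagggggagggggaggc

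Introns close to a TSS had higher DKO minus WT medians of H3K27ac than all regions and introns beyond 5 kb, and lower ones than promoters. The median H3K27ac levels over the 9017 introns were 7.81 in formative DKO, 7.88 in formative WT, 7.95 in naive DKO and 7.83 in naive WT cells, on the log2 scale. In formative cells the median log2 difference, DKO minus WT, was 0.10 in these introns against -0.63 in all regions and -0.70 in introns beyond 5 kb. At a difference of at least 2-fold, 2125 introns were higher in formative DKO cells (23.6%, against 11.2% of all regions) and 2079 were lower (23.1%, against 39.3%). In naive cells the median was 0.25, against -0.10 in all regions and -0.07 in introns beyond 5 kb. There 2126 introns were higher in DKO cells (23.6%, against 19.2% of all regions) and 1399 lower (15.5%, against 26.3%). The sign of the medians over these introns depends on how the groups are scaled, because setting the promoter medians of the groups equal turned them to -0.53 in formative and -0.32 in naive cells. The gap to introns beyond 5 kb was 0.80 in formative and 0.32 in naive cells. Intergenic regions within 5 kb had medians of -0.44 in formative and -0.36 in naive cells, and promoters 0.79 and 0.58, so the introns lay between these classes.

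The difference followed distance to the TSS. Within 1 kb (2165 introns) the median DKO minus WT log2 H3K27ac was 0.81 in formative and 0.54 in naive cells. It was 0.05 and 0.21 from 1 to 2 kb (1518 introns), -0.07 and 0.12 from 2 to 3 kb (1655), -0.18 and 0.11 from 3 to 4 kb (1819), and -0.25 and 0.08 from 4 to 5 kb (1860). In formative cells 41.8% of introns within 1 kb were at least 2-fold higher in DKO and 11.96% lower, while from 4 to 5 kb 13.9% were higher and 27.7% lower. The decline continued past the 5 kb limit, with medians of -0.43 in formative and -0.01 in naive cells at introns from 5 to 10 kb and -0.91 and -0.12 from 50 to 100 kb. Introns just inside the limit, at 4500 to 5000 bases (971), had -0.22 and 0.06, and those just outside, at 5000 to 5500 bases (955), had -0.36 and 0.04. The median was highest in the nearest kilobase and lowest in the farthest of the 5 under all 3 other scalings tried, although under equal promoter medians the nearest kilobase itself was at 0.18 in formative and -0.03 in naive cells.

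**Figure D1:**
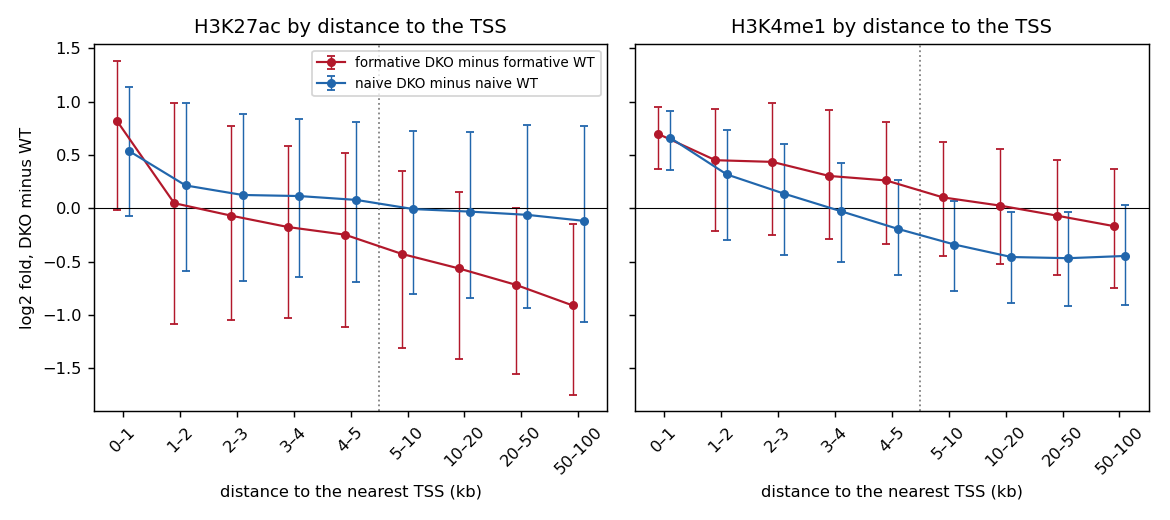
Median log2 difference in H3K27ac and H3K4me1, DKO minus WT, of intronic regions by distance to the nearest TSS in kb, with bars from the lower to the upper quartile over regions. The dotted line marks 5 kb, and the formative H3K27ac medians run from 0.81 in the nearest bin to -0.91 at 50 to 100 kb.

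Distance and CpG density moved together, and 80.7% of the 1804 introns richest in CpG lay within 1 kb of a TSS. Among introns within 1 kb, the 1456 of that set had medians of 0.98 in formative and 0.59 in naive cells, and the 709 others 0.17 and 0.35. Among introns at 1 to 5 kb, the 348 rich in CpG had 0.36 and 0.43, and the 6504 others -0.16 and 0.12. CpG-rich introns thus had the higher DKO minus WT median at both distances and in both states. Introns downstream of the TSS had 0.21 in formative cells and those upstream -0.42. First introns had 0.35 in formative cells, intron 2 had -0.09 and later introns -0.33. By chromosome, the medians were below 0 in both states on chromosome 8, with -0.49 in formative and -0.15 in naive cells over 677 introns, and on chromosome 6, with -0.29 and -0.08 over 554. Chromosomes 14 and 17 had naive medians of 0.19 and 0.34 in H3K27ac, -0.07 each in H3K4me1 and -0.33 and -0.24 in RNA of the nearest genes, and chromosome 8 had -0.15 in naive H3K4me1 and -0.13 in naive RNA. The introns off chromosome 8 had 0.15 in formative and 0.28 in naive cells, and leaving that chromosome out moved no summary by more than 0.1 on the log2 scale or 1.5 times.

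The introns with the largest differences are described here by their levels in the 4 groups. They were chosen for a large difference between groups, so an extreme level in a compared group is favoured by that choice. Whether such arrangements are more frequent than the choice alone would give was not tested. Several were low in naive WT cells alone, a group in the comparison that chose them. Radil, which encodes an effector of Rap GTPases, had H3K27ac levels of 10.44 in formative DKO, 9.13 in formative WT, 10.85 in naive DKO and 5.33 in naive WT cells in intron 1, so that naive DKO was 45.7-fold above naive WT on the value + 1 scale. Plec, encoding the cytolinker plectin, had 10.09, 9.04, 10.60 and 6.17 in the same order of groups. Tagln, encoding the actin-binding protein transgelin, had 8.94, 8.53, 7.58 and 3.87, and its RNA levels were 5.21 in formative DKO, 3.69 in formative WT, 2.73 in naive DKO and -0.14 in naive WT cells. At Tagln the mark and the RNA were both lowest in naive WT cells. Hilpda, encoding a lipid droplet protein, had H3K27ac levels of 8.30, 7.65, 8.03 and 3.23, with RNA between 6.62 and 6.67 in all 4 groups. Tcaf1 and Mbnl2, the second of which encodes a splicing regulator, were also lowest in naive WT, at 5.94 and 5.81, and highest in a DKO group, at 9.90 and 9.79.

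Other introns, chosen for a lower level in naive DKO than in naive WT cells, were highest in naive WT cells. Nexmif, named for its role in neurite extension and migration, had H3K27ac levels of 5.18 in formative DKO, 5.15 in formative WT, 3.96 in naive DKO and 8.21 in naive WT cells. Zfp459, encoding a zinc finger protein, had 5.41, 5.01, 5.09 and 8.02, and its RNA levels were 4.44, 3.72, 3.82 and 6.07 in the same order. Its mark and its RNA were both highest in naive WT cells. Tmbim1, whose intronic region lies in the neighbouring gene Pnkd, had H3K27ac levels of 5.18, 4.85, 5.08 and 8.18. Hsd3b5, a steroid dehydrogenase gene, had 6.23, 7.60, 6.20 and 10.28, and Ccl25, a chemokine gene, 4.32, 5.60, 4.22 and 7.32. At both, naive DKO cells were lower than naive WT cells by 4.08 and 3.09 on the log2 scale, and formative DKO cells lower than formative WT cells by 1.37 and 1.28, so both DKO groups were below both WT groups. Ccl25 lies on chromosome 8, where the median DKO minus WT was -0.49 in formative and -0.15 in naive cells. Sh3gl2, encoding the endocytic protein endophilin A1, had 2.16, 3.56, 4.01 and 7.17, and its RNA was 2.19 lower on the log2 scale in naive DKO than in naive WT cells.

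A further set, chosen for a higher level in formative DKO than in formative WT cells, was low in formative WT cells alone. Trim11, encoding a ubiquitin ligase, had H3K27ac levels of 10.99 in formative DKO, 5.89 in formative WT, 10.81 in naive DKO and 9.45 in naive WT cells, a 34.3-fold excess of formative DKO over formative WT. Slc7a1 had 8.74, 4.96, 9.38 and 8.79, Fastkd5, a gene of mitochondrial RNA processing, 8.64, 4.73, 8.83 and 8.46, and Myof 10.12, 5.79, 8.80 and 8.68. The RNA levels lay closer together, as Trim11 had 6.12 in formative DKO and 5.96 in formative WT cells, and Slc7a1 5.76 and 5.66. Introns lower in formative DKO cells included that of Klf15, which encodes a Kruppel-like factor, with H3K27ac levels of 3.14 in formative DKO, 6.20 in formative WT, 4.14 in naive DKO and 6.32 in naive WT cells and RNA levels of 1.44, 2.28, -0.12 and 2.66 in the same order, and both DKO groups were below both WT groups in the mark and in RNA. Defb1 had H3K27ac levels of 4.16, 7.09, 5.24 and 5.66, and its H3K4me1 was lower in DKO by 2.06 in formative and 1.82 in naive cells. Defb1 also lies on chromosome 8, where the median H3K27ac difference was below 0 in both states.

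**Figure D2:**
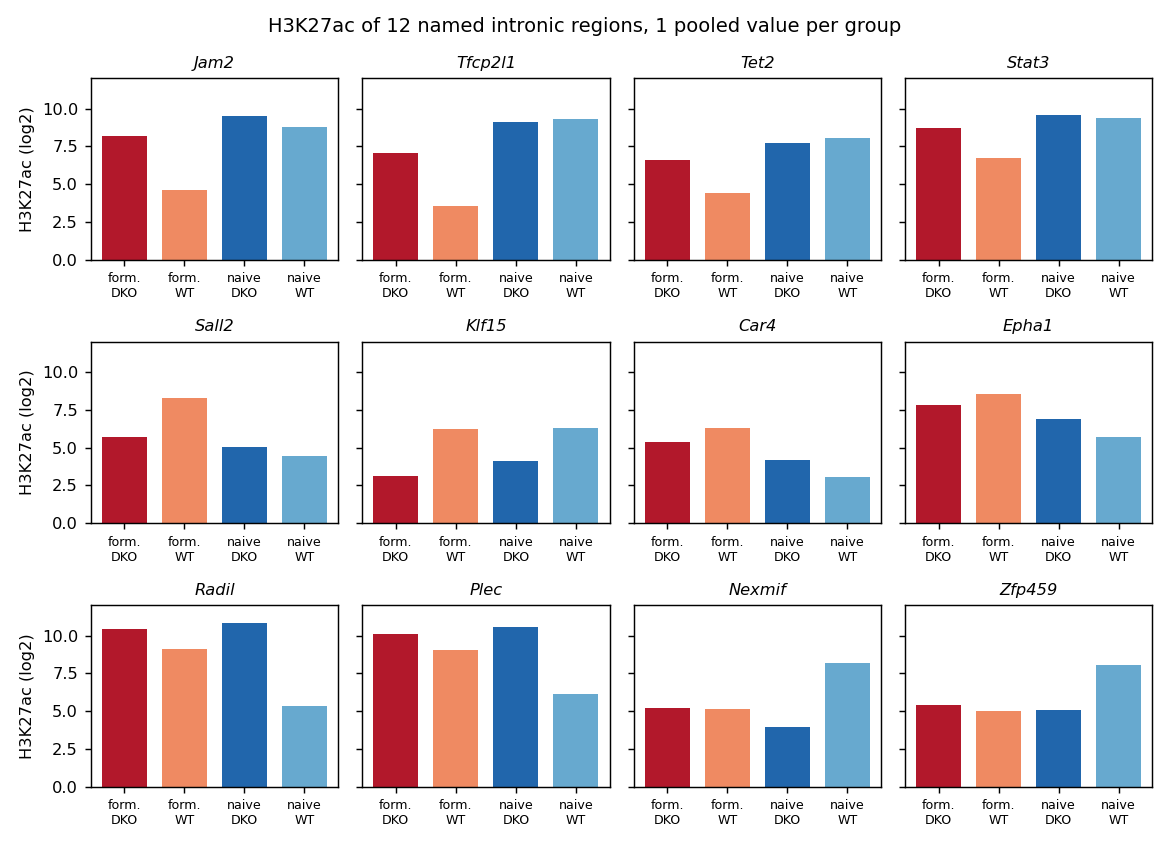
Authors' pooled H3K27ac level, log2(value + 1), of 12 named introns in formative DKO, formative WT, naive DKO and naive WT cells, 1 bar per group with no error bar because each group has 1 value. Jam2, Tfcp2l1, Tet2 and Stat3 are lowest in formative WT, Sall2 is highest in formative WT, Klf15 is lower in both DKO groups than in both WT groups, and Radil and Plec are low in naive WT alone.

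Kmt2d, the gene of MLL4, had 1 such intron, on chromosome 15 from 98868046 to 98870218, and Kmt2c had none. Its H3K27ac levels were 7.96 in formative DKO, 7.34 in formative WT, 7.96 in naive DKO and 6.86 in naive WT cells. RNA of Kmt2d was lower in DKO by 0.84 in formative and 0.72 in naive cells on the log2 scale, and RNA of Kmt2c by 0.91 and 1.15. Which parts were deleted is not stated, so neither measure checks the deletion.

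H3K4me1, measured in libraries outside this series and deposited in the same table, had higher DKO minus WT medians at these introns than in introns beyond 5 kb, and lower ones than at promoters. Its median levels were 6.80 in formative DKO, 6.45 in formative WT, 6.75 in naive DKO and 6.66 in naive WT cells. The median log2 difference, DKO minus WT, was 0.48 in formative cells, against -0.05 in introns beyond 5 kb and 0.66 at promoters, and 0.23 in naive cells, against -0.43 and 0.68. With the promoter medians set equal these values for the introns turned to -0.11 and -0.38. Of 9015 introns with both marks above 0, 1934 were at least 2-fold higher in formative DKO (21.5%, against 10.4% of all regions) and 606 lower (6.72%, against 15.4%). In naive cells 736 were higher in DKO (8.16%, against 4.57%) and 689 lower (7.64%, against 18.8%). By distance, the medians were 0.70 in formative and 0.66 in naive cells within 1 kb and 0.26 and -0.19 from 4 to 5 kb.

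Introns lower in H3K4me1 in DKO cells were more often lower in H3K27ac than introns higher in H3K4me1 were. Of the 606 introns lower in H3K4me1 in formative DKO cells, 54.6% were also at least 2-fold lower in H3K27ac and 3.47% higher. Of the 1934 that were higher in H3K4me1, 33.0% were higher in H3K27ac and 11.7% lower. In naive cells 45.4% of the 689 introns with lower H3K4me1 were lower in H3K27ac and 10.3% higher. Introns beyond 5 kb with lower H3K4me1 had 56.5% lower and 3.63% higher in H3K27ac in formative cells and 40.8% and 9.86% in naive cells. Among those beyond 5 kb with higher H3K4me1, 10.8% were higher and 32.2% lower in H3K27ac in formative cells, and 32.4% and 21.2% in naive cells. Within 5 kb, of the 736 with higher H3K4me1 32.9% were higher and 8.42% lower. Between 41.9% and 44.3% of the introns with lower H3K4me1 thus stayed within 2-fold in H3K27ac. Introns lower in H3K4me1 were poorer in CpG, with medians of 0.973 per 100 bases in formative and 1.00 in naive cells, than the introns higher in H3K4me1, with 1.38 and 2.99. Across the 9015 introns Spearman's rho between the 2 log2 differences was 0.38 in formative and 0.29 in naive cells, against 0.17 and 0.23 across introns beyond 5 kb; these are descriptions, since the regions share the same pooled libraries.

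**Figure D3:**
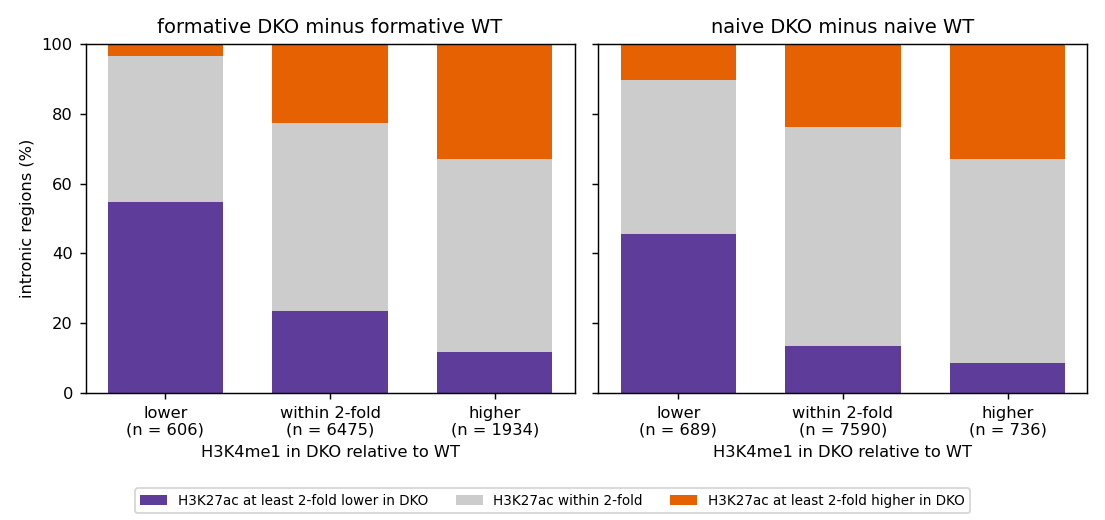
Share of introns within 5 kb of a TSS, in percent, that were at least 2-fold higher, within 2-fold or at least 2-fold lower in H3K27ac in DKO than in WT, grouped by their H3K4me1 difference. In formative cells 54.6% of introns with lower H3K4me1 had lower H3K27ac, and in naive cells 45.4%.

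The 2 states shared only part of the DKO differences in H3K27ac. Introns at least 2-fold higher in DKO in both states numbered 592, which is 27.9% of those higher in formative and 27.8% of those higher in naive cells. Those lower in both numbered 594, or 28.6% of the formative and 42.5% of the naive ones. Over all 9017 introns 23.6% were higher in DKO in each state, and 23.1% were lower in formative and 15.5% in naive cells. The shares higher in both thus lay close to those of all introns, and the shares lower in both lay above them. In introns beyond 5 kb, those higher in both made up 21.2% of the formative and 7.88% of the naive ones, and those lower in both 31.6% and 53.3%. In 467 introns the difference had opposite directions with DKO lower in formative and higher in naive cells, and in 146 with DKO higher in formative and lower in naive cells. The 467 were 22.0% of the introns higher in naive DKO, against 41.3% beyond 5 kb, and the 146 were 10.4% of those lower in naive DKO, against 5.15%. Whatever their naive difference, 23.1% of introns within 5 kb and 40.6% beyond it were lower in formative DKO, and 23.6% and 7.12% were higher. The shares of 22.0% and 41.3% were thus close to those of all introns of their class, while 10.4% and 5.15% lay below them. In H3K4me1 the opposite directions held 6 and 17 introns, or 0.815% of those higher and 2.47% of those lower in naive DKO, against 6.22% and 3.75% beyond 5 kb. Of all introns within 5 kb 6.72% were lower and 21.5% higher in H3K4me1 in formative DKO, and beyond 5 kb 14.1% and 9.44%. The shares with opposite directions in H3K4me1 all lay below these. The group with the highest H3K27ac was formative WT for 31.8% of introns, naive DKO for 29.9%, naive WT for 21.9% and formative DKO for 16.3%. These shares were not computed over all regions. The median level of all regions was 7.27 in formative DKO, 8.03 in formative WT, 7.29 in naive DKO and 7.58 in naive WT cells. Which group is highest can change with the scaling between groups, which is not stated.

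Between the naive and the formative state in WT cells, the replicated comparison, more of these introns fell than rose by the DiffBind test, while the pooled 2-fold threshold had the opposite balance. By a DiffBind adjusted p under 0.05 in the authors' deposited table, 1162 of 9017 introns rose (12.9%, against 18.2% of all regions) and 1939 fell (21.5%, against 16.4%). At the pooled 2-fold threshold 28.2% were higher in formative WT cells, against 38.1% of all regions, and 24.7% lower, against 18.9%, with a median of -0.01. In DKO cells, where only the pooled values exist, 1112 introns were at least 2-fold higher in the formative state (12.3%, against 16.6% of all regions) and 1479 lower (16.4%, against 17.9%). The WT medians also followed distance, at -0.41 within 1 kb and 0.26 from 4 to 5 kb on the pooled log2 scale, while the DKO medians lay between -0.21 and -0.10 in all 5 bins. The 2 genotypes share no libraries in this comparison. The 1162 introns that rose in WT had a median of 0.28 in DKO cells, with quartiles of -0.37 and 1.00, against 2.47 in WT cells, where the rise chose them. Of these 25.2% were at least 2-fold higher in formative than in naive DKO cells and 11.4% lower. Introns beyond 5 kb that rose in WT had 25.4% and 11.1%, with a DKO median of 0.31, and promoters that rose had 24.6% and 8.88%, with 0.32. The classes as a whole differed in these DKO shares. Of all introns within 5 kb 12.3% were higher and 16.4% lower, of all beyond 5 kb 18.0% and 16.5%, and of all promoters 9.01% and 9.74%. The 1939 introns that fell in WT had a median of -0.52 in DKO cells, with quartiles of -0.997 and -0.10, against -1.84 in WT cells, and 25.0% were at least 2-fold lower and 2.22% higher. The DKO medians thus had the sign of the WT ones, but their sizes cannot be compared, since the introns were chosen for their change in WT.

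**Figure D4:**
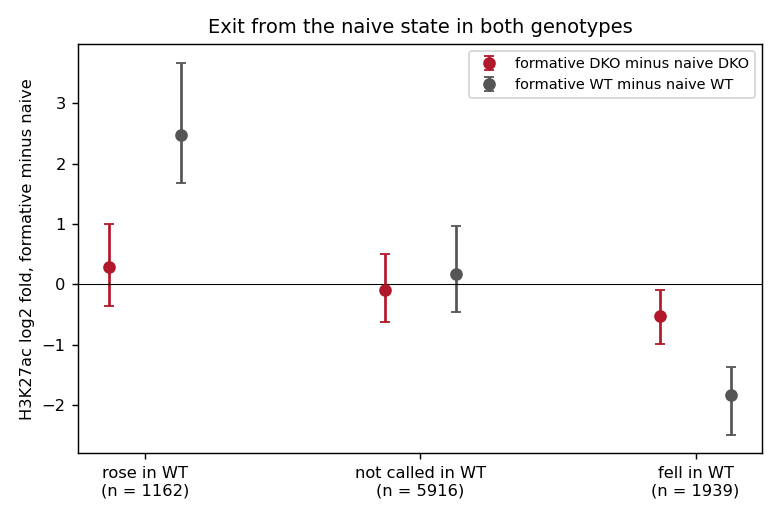
H3K27ac log2 difference, formative minus naive, in DKO and WT cells at introns that rose, were not called or fell in WT by the authors' DiffBind test, with points at the median and bars from the lower to the upper quartile over introns. Introns that rose in WT have a median of 0.28 in DKO, and those that fell -0.52.

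Naive pluripotency genes had introns that fell in formative WT cells. Of 22 genes of this list 7 had 10 introns, of which 7 fell and 0 rose, and the 10 had a median of -2.69 in WT and -1.73 in DKO cells, formative minus naive. Beside this and the list counts below, 21.5% of all 9017 introns fell and 12.9% rose, against 16.4% and 18.2% of all regions. In formative cells 3 of the 10 were at least 2-fold higher in DKO than in WT and 3 lower, with a median of -0.16 that became 0.32 with equal sums, -0.80 with equal promoter medians and 2.501 with quantile normalization. The introns named from this and the following lists had the smallest DiffBind adjusted p between the WT states. That choice favours an extreme WT level, and with it a difference from DKO in the same state. Whether the differences from DKO exceed what the choice alone would give was not tested. Tfcp2l1, a transcription factor of the naive state, had H3K27ac levels of 7.07 in formative DKO, 3.55 in formative WT, 9.08 in naive DKO and 9.30 in naive WT cells in intron 1. In the authors' deposited table it fell by 6.07 on the log2 scale in WT (DiffBind adjusted p = 2.73e-20). RNA of Tfcp2l1 had levels of 6.41, 6.57, 9.17 and 9.44 in the same order, so the RNA was as low in formative DKO as in formative WT cells while the mark was 11.5-fold higher. Jam2, a junctional adhesion molecule gene, showed the same arrangement, with H3K27ac at 8.22, 4.61, 9.48 and 8.79 and RNA at 4.88, 4.54, 7.38 and 7.38. The fall of Jam2 in WT was -4.27 in the authors' deposited table (DiffBind adjusted p = 3.11e-13). Tet2, encoding an oxidase of 5-methylcytosine, had H3K27ac levels of 6.60, 4.44, 7.75 and 8.09, and in the authors' deposited table it fell by 3.71 (DiffBind adjusted p = 1.17e-27). Tfcp2l1, Jam2 and Tet2 are the 3 introns of the list that were at least 2-fold higher in formative DKO cells. The 3 that were at least 2-fold lower are not among the introns described here. Nr5a2, an orphan nuclear receptor gene, differed from the introns described above, because formative DKO cells were not above formative WT cells as deposited, at 3.57, 4.40, 6.27 and 7.60, although quantile normalization placed them 2.62 above. Nr5a2 fell by 3.24 in the authors' deposited table (DiffBind adjusted p = 1.1e-19).

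Genes of LIF and STAT3 signalling, which maintains naive cells, had 5 introns of 4 genes, and 4 fell and 0 rose in WT. Stat3, the transcription factor of the pathway, had H3K27ac levels of 8.71 in formative DKO, 6.76 in formative WT, 9.56 in naive DKO and 9.37 in naive WT cells. Stat3 fell by 2.64 in WT in the authors' deposited table (DiffBind adjusted p = 3.65e-06). Lifr, a LIF receptor subunit, had 6.94, 5.19, 6.40 and 9.51, and was lower in naive DKO than in naive WT cells. Over the 5 introns the median DKO minus WT was 1.47 in formative cells, with 3 higher and 0 lower (2 and 2 with equal promoter medians), and -1.94 in naive cells, with 0 higher and 3 lower. Core pluripotency genes had 11 introns, of which 7 fell and 0 rose. Rif1, known in telomere biology and in maintaining pluripotency, had 8.09, 5.90, 8.66 and 9.33. Dppa2, a factor expressed in pluripotent cells, had H3K27ac levels of 4.78, 4.64, 5.74 and 6.89 and RNA levels of 5.78, 6.45, 4.33 and 6.87, with both lower in naive DKO than in naive WT cells. Genes of the machinery of H3K4 methylation and H3K27 acetylation, enzymes and complex subunits such as Wdr5, had 17 introns, of which 7 fell and 0 rose in WT. Among those that fell was that of Kdm1a, an H3K4 demethylase, at 7.00, 5.00, 7.64 and 7.61. Of all 9017 introns 21.5% fell and 12.9% rose, and the lists were not tested against these shares.

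Formative genes had 11 introns of 9 of the 24 listed genes, of which 5 rose and 2 fell in WT. Their median, formative minus naive, was 0.68 in DKO and 1.25 in WT cells, and in formative cells 0 were at least 2-fold higher and 4 lower in DKO than in WT (2 and 4 with quantile normalization, 0 and 9 with equal promoter medians). Sall2, encoding a zinc finger factor, had H3K27ac levels of 5.69 in formative DKO, 8.29 in formative WT, 5.02 in naive DKO and 4.43 in naive WT cells in intron 1. In the authors' deposited table it rose by 4.01 in WT (DiffBind adjusted p = 0.000446), and RNA of Sall2 had levels of 5.50, 6.41, 2.65 and 2.98, higher in the formative state in both genotypes. Car4, encoding a carbonic anhydrase, had H3K27ac levels of 5.36, 6.30, 4.17 and 3.04 and RNA levels of 6.88, 6.45, 0.62 and 0.91, so its RNA was as high in formative DKO as in formative WT cells. Car4 rose by 3.70 in the authors' deposited table (DiffBind adjusted p = 5.85e-11). Epha1, an ephrin receptor gene, had H3K27ac levels of 7.80, 8.55, 6.92 and 5.72. In the authors' deposited table it rose by 2.84 (DiffBind adjusted p = 0.00386). Dnmt3a, a de novo DNA methyltransferase gene, went the other way and had H3K27ac levels of 5.58 in formative DKO, 5.19 in formative WT, 5.79 in naive DKO and 7.05 in naive WT cells. Dnmt3a fell by 1.82 in the authors' deposited table (DiffBind adjusted p = 2.53e-08), and its naive DKO level was 1.25 lower on the log2 scale than its naive WT level. Outside the lists, Cgn, which encodes the tight junction protein cingulin, was high in both formative groups, at 8.04 and 7.84, against 4.69 in naive DKO and 3.29 in naive WT cells, and Acad11, an acyl-CoA dehydrogenase gene, had 5.24, 2.79, 7.48 and 9.17.

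Introns of signalling and other cell type genes were few. For comparison with their counts, 12.9% of all 9017 introns rose and 21.5% fell, and the falls of the Wnt and housekeeping lists below lay near that share. FGF and ERK genes had 5, of which 4 were above 0 in all groups, with 0 that rose and 2 that fell. The fifth, at Dusp6, an ERK phosphatase gene, was listed at 0 in naive DKO and had 3.54 in formative DKO, 8.24 in formative WT and 8.27 in naive WT cells. Wnt and beta-catenin genes had 10, with 1 that rose and 3 that fell, and Ctnnb1, the gene of beta-catenin, had 9.93 in formative DKO, 7.49 in formative WT, 10.37 in naive DKO and 10.27 in naive WT cells. Primed and mesendoderm genes had 4 (0 rose, 1 fell), primitive endoderm genes 3 (0 and 0), neural genes 3 with 2 above 0 (0 and 0), trophoblast genes 2, both of Tead4 (0 and 1), and fibroblast genes 0. Housekeeping genes had 7, of which 0 rose and 2 fell, and their median DKO minus WT was 0.87 in formative cells, or 0.24 with equal promoter medians. In RNA, Nanog had levels of 7.23 in formative DKO, 6.91 in formative WT, 9.12 in naive DKO and 8.71 in naive WT cells, Sox2 7.82, 7.01, 7.80 and 7.94, and Fgf5 5.40, 5.82, -0.35 and -0.27. In the same order Klf4 had 7.22, 6.66, 9.38 and 7.53, Zfp42 5.73, 4.92, 6.87 and 7.70, and Pou3f1 8.86, 8.39, 3.67 and 3.14. Pou5f1, a defining gene of pluripotent cells, was listed at 2.49 to 3.25 in all 4 groups. This level is uncertain, because Pou5f1 has near-identical pseudogenes and no source used here gives the counting of shared reads. The median RNA level of the fibroblast markers was 3.00, 1.79, -0.20 and 0.24 over the 3 of 10 genes with RNA. That of the neural markers was 4.86, 2.82, 3.23 and 2.45 (5 of 10 genes). Primitive endoderm markers had 3.82, 3.23, 3.81 and 2.32 (8 of 14) and trophoblast markers 2.33, 3.15, 3.28 and 2.52 (7 of 12). The part of other cell types in the intron results was not tested.

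RNA of the nearest genes moved with H3K27ac of the introns to a limited degree. RNA was given for 3632 of the nearest genes, with median levels of 5.00 in formative DKO, 4.89 in formative WT, 4.88 in naive DKO and 4.83 in naive WT cells, against 3.98 to 4.25 over all 9781 genes with RNA. At least 2-fold, RNA of 163 genes was higher in formative DKO than in formative WT cells (4.49%, against 5.87% of all genes) and of 128 lower (3.52%, against 5.05%). In naive cells 198 were higher in DKO (5.45%, against 8.54%) and 358 lower (9.86%, against 11.2%). Between the states 437 genes were higher in formative DKO (12.03%, against 18%) and 173 lower (4.76%, against 5.15%), and 371 were higher in formative WT (10.2%, against 17.1%) and 364 lower (10.0%, against 9.65%).

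The 468 genes whose introns were at least 2-fold lower in H3K27ac in naive DKO cells had a median RNA difference of -0.41 (log2, DKO minus WT), and 30.6% of them were at least 2-fold lower in RNA. The 846 genes with higher H3K27ac had 0.20, with 10.5% higher in RNA, and the 2262 within 2-fold had 0.01. In formative cells the same 3 groups were at -0.09 for 616 genes, 0.12 for 952 and 0.04 for 2008, and 11.9% of the genes with lower H3K27ac were lower in RNA. A test of the difference between the states was not possible on these values. Genes with at least 1 intron lower in H3K4me1 had a median RNA difference of -0.22 in formative (174 genes) and -0.55 in naive cells (232 genes). This grouping lets a gene with several introns enter more than 1 class, unlike the H3K27ac grouping, in which each gene was counted once. Between the states, by the pooled fold of formative over naive, genes with higher H3K27ac had a median RNA difference of 0.41 in DKO (362 genes) and 0.29 in WT (837 genes), and genes with lower H3K27ac -0.09 (517) and -0.21 (951). Across 3576 genes with both values Spearman's rho was 0.19 in formative and 0.29 in naive cells for DKO against WT, and 0.23 in DKO and 0.31 in WT for formative against naive, each a description across genes that share libraries.

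**Figure D5:**
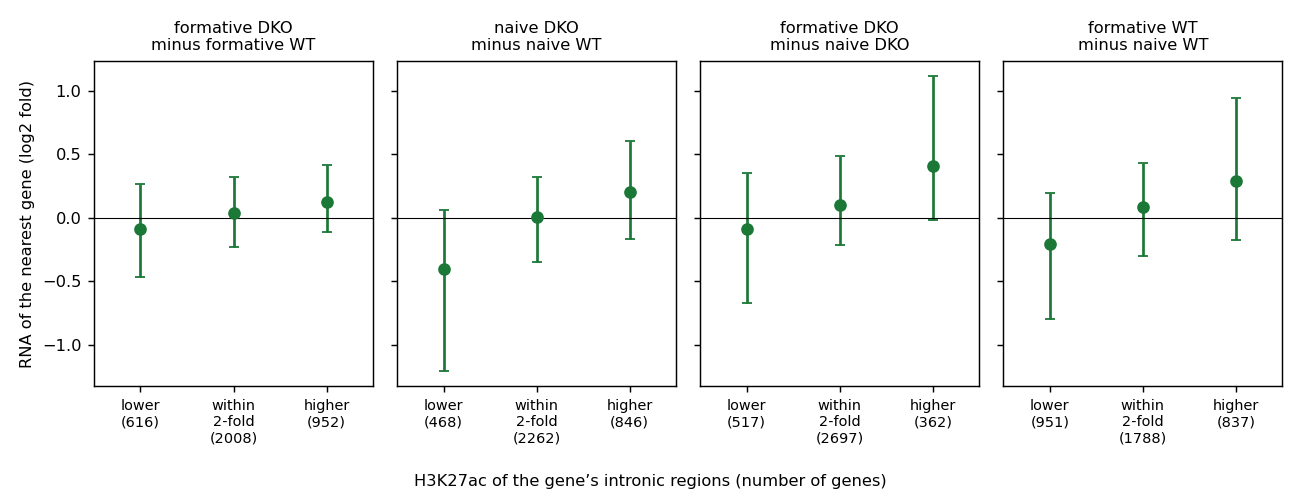
RNA log2 difference of the nearest genes, grouped by whether their introns were at least 2-fold higher, within 2-fold or at least 2-fold lower in H3K27ac in the same comparison, with points at the median and bars from the lower to the upper quartile over genes. Genes with lower H3K27ac in naive DKO than naive WT cells sit at -0.41, and those in formative cells at -0.09.

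Introns of 1 gene did not always have the same difference. Ranges over introns of different genes were not computed, and with 1 pooled value per group a spread within a gene cannot be told apart from measurement noise. Over all 9017 introns the quartiles of DKO minus WT were -0.89 and 0.95 in formative and -0.53 and 0.95 in naive cells. For the 1829 genes with 2 or more, holding 4331 introns, the median range within a gene of the log2 difference DKO minus WT was 1.16 in formative and 1.05 in naive cells. At least 2-fold differences in both directions occurred in 103 of these genes in formative (5.63%) and 105 in naive cells (5.74%). All introns of the gene were higher in DKO in 147 and 111 genes, and all lower in 146 and 68. Plekha7, which encodes a protein of adherens junctions, had the most introns, 12 on chromosome 7, and their differences ran from -1.39 to 1.01 in formative and from -1.53 to 1.09 in naive cells, with 2 that fell and 0 that rose between the states in WT.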

How the data were processed

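H3K27ac CUT&Tag was measured in 8 libraries, 2 in each of 4 groups, which were assigned from the sample labels. The submitters' processing notes name Trim Galore, Bowtie2, SEACR, DiffBind, deepTools and the build mm10, with no version or order. A single table was deposited, with 112137 regions and 47 columns. Its H3K27ac and H3K4me1 values are deposited as log2(value + 1), 1 pooled value per group, and RNA as log2 levels of the nearest gene; their scaling is not stated. H3K4me1 and RNA come from libraries outside this series. DiffBind results for formative against naive WT were deposited as log2 fold with p-value and adjusted p-value. Distance to the TSS and region width are other descriptors in the authors' table. Of the columns, 10 were not used, 4 of them levels.

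Tests planned across libraries could not be run on pooled columns, so the other comparisons are described by size, with a threshold of 2-fold and no p-value. Folds are differences of the deposited log2 columns within a region, because the deposited H3K27ac level falls with about the square of region width (exponent -1.97 in naive WT, -2.00 in formative WT), so levels are not compared between regions. Depth is unknown, so no counting interval is given. Coordinates are printed as the file gives them, in mm10. Sequences, host introns and CpG come from RefSeq GRCm38; 96.3% of signed distances matched a RefSeq TSS within 10 bases.

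Introns were named by rule: in each H3K27ac comparison the 6 largest differences in each direction past the threshold, among introns above 0 in all groups, at least 500 bases wide and above the median level, 1 per gene; up to 4 genes per list by smallest DiffBind adjusted p; and all of Kmt2c and Kmt2d. Gene lists were scored on introns only. The members, lists and rule were chosen with earlier results of these data known. Motif windows shown, and the RNA markers Nanog, Sox2, Fgf5, Klf4, Zfp42, Pou3f1 and Pou5f1, were chosen after their values were seen. Scripts were tested on simulated data and used Python 3.11.15, pandas 2.3.3, numpy 2.4.6, scipy 1.17.1 and matplotlib 3.10.9. Alternatives changed the scaling, distance, width, threshold, introns per gene, and use of introns at 0 or on chromosome 8. An intron that the naming rule selected is not reported here.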

Additional observations from a re-analysis of the deposited data

How the results depend on the processing

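No paired analysis was possible because the deposited columns hold 1 pooled value per group, and leaving out a replicate could not be run for the same reason. Of 146 recomputed summaries, 99 kept their direction and size, 41 moved and 6 changed sign. Scaling decides the sign of the medians: equal sums, equal promoter medians and quantile normalization shifted the median of all regions by 0.49, -0.63 and 0.88 in formative DKO against WT, 0.22, -0.57 and 0.18 in naive DKO against WT, 0.14, 0.12 and 0.04 in formative against naive DKO, and -0.12, 0.17 and -0.62 in formative against naive WT. With equal sums, the median over the introns was 0.59 in formative DKO against WT, with 37.6% higher and 15.4% lower, 0.47 in naive DKO against WT and -0.022 in formative against naive DKO. With equal promoter medians it reversed to -0.53 (9.99% higher, 37.4% lower) and -0.32 (11.9% higher, 27.3% lower) in formative and naive DKO against WT, and was -0.051 in formative against naive DKO; H3K4me1 reversed to -0.11 (4.40% higher, 17.6% lower) and -0.38 (0.477% higher, 24.1% lower). With quantile normalization it was 0.97 (49.2% higher, 12.2% lower) and 0.39 in formative and naive DKO against WT, and the formative DKO against WT values of Ccl25 and Sh3gl2 reversed to 0.70 and 1.43. At a distance of at most 2 kb the medians were 0.56 and 0.43 for H3K27ac and 0.62 and 0.56 for H3K4me1 in formative and naive DKO against WT (naive H3K4me1 14.1% higher, 4.59% lower), -0.25 in formative against naive WT, and the gaps to introns beyond 5 kb were 1.26, 0.50 and -0.97. At a 4-fold threshold 5.19% were higher and 9.93% lower in formative DKO against WT, 7.01% and 5.52% in naive DKO against WT, and 3.57% and 4.25% in formative against naive DKO. In formative against naive WT, an adjusted p under 0.01 left 7.95% that rose; the pooled 2-fold threshold gave 28.2% higher and 24.7% lower, the opposite balance to the DiffBind calls, with a median that was 0.029 when introns at 0 were counted, against -0.01 without them. Scalings of this comparison, added after the data were seen, gave 26.2% higher and a median of -0.13 with equal sums, 31.7% higher and a reversed median of 0.17 with equal promoter medians, and 41.1% lower and -0.64 with quantile normalization. Leaving out chromosome 8, also added after the data were seen, 1 intron per gene and a width of at least 500 bases moved none of these summaries past their tolerance of 0.1 (log2) or 1.5 times.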
